A study of Mus musculus with 6 samples.

Results

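The perilipin genes Plin1, Plin2, Plin3, Plin4 and Plin5 were followed in RNA sequencing of mouse liver. Their rows were taken by gene name from the deposited tables, which hold 21899 genes, and each of the 5 names matched 1 row. 4 of the 5 had enough reads to be tested, among 12845 genes tested in all, and Plin1 did not.

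Perilipins coat lipid droplets, the organelles that store triglyceride and sterol ester, and control how far lipases reach that store. In hepatocytes Plin2 is the main constitutive coat, and its protein is degraded when it is not bound to a droplet. Plin3 is made in most tissues and moves between cytosol and droplets, Plin5 is a protein of oxidative tissues that links droplets to mitochondria, and Plin1 and Plin4 are best known from adipocytes. Peroxisome proliferator-activated receptors (PPARs), nuclear receptors for fatty acids, are known to drive transcription of several family members.

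Livers came from C57BL/6 mice, an inbred laboratory strain, and 3 were sequenced for each feed. The control libraries are labelled CSAA and the others CDAA, amino acid-defined feeds with and without added choline, as the abbreviations are used in this field. All mice were 6 weeks old at the start and had 1 week of acclimatisation, those given CDAA were moved to it by mixed feed over 1 week, and tissue was taken at week 6 after that. No gene was altered and no agent other than the feed is named. The question was how transcripts of droplet proteins respond in this model of fatty liver.

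Libraries held between 14580676 and 17367173 reads over genes, so that 3 reads corresponded to 0.173 to 0.206 CPM (reads scaled to a common library total). All 20 hepatocyte markers were detected in all 6 libraries. The choline-deficient feed is known for macrophage influx and fibrosis. Here, in contrast, 13 of 20 macrophage markers and 7 of 15 stellate cell markers were lower in the libraries labelled CDAA and 0 were higher (edgeR adjusted p under 0.05). Of all tested genes, 10.5% were lower and 4.25% higher. No transcript marks the feed itself, so every direction below holds for the libraries as labelled. CDAA replicate 1 stood apart through pancreatic transcripts, with 18 acinar genes summing to 2468 CPM against 4.34 to 15.2 CPM elsewhere. Its 19 striated muscle genes summed to 440.7 CPM, against 10.4 to 30.3 CPM elsewhere. In bulk tissue, fewer cells of a type and less RNA per cell cannot be told apart.

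The family is spread over 3 chromosomes, with Plin4 and Plin5 as close neighbours. In the files' coordinates, whose build is not named and which differ from GRCm38, Plin1 (ENSMUSG00000030546) lies on chromosome 7 from 79369966 to 79382651. Plin2 (ENSMUSG00000028494) lies on chromosome 4 from 86566623 to 86588297. On chromosome 17 Plin4 (ENSMUSG00000002831) runs from 56407591 to 56416803 and Plin5 (ENSMUSG00000011305) from 56418601 to 56424596, with 1797 bases between them. Plin3 (ENSMUSG00000024197) runs from 56584476 to 56599873, a further 159879 bases on, and all 5 genes are on the minus strand.

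Promoter windows of RefSeq on GRCm38.p6, from 250 bases before to 50 after each start site, matched all 5 members, with 2 windows for Plin5. They were searched on both strands for AGGTCA, the core of nuclear receptor elements, and for a pair of AGGTCA cores with any base between them, the element that PPARs bind. The TATA box (TATAAA), the CCAAT box, the GC box (GGGCGG) and the E-box (CACGTG) were also searched. Shown are the windows of Plin2, which held most of the family's mRNA, and of the neighbours Plin4 and Plin5 (upstream window), 5′ to 3′ on the gene's strand with every match in capitals.
Plin2, chr4:86670010-86670309: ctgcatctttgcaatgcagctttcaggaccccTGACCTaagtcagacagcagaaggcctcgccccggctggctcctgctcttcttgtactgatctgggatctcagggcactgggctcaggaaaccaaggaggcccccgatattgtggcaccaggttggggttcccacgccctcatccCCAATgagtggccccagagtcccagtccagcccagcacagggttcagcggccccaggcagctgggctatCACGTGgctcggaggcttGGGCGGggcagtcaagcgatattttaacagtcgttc
Plin4, chr17:56109733-56110032: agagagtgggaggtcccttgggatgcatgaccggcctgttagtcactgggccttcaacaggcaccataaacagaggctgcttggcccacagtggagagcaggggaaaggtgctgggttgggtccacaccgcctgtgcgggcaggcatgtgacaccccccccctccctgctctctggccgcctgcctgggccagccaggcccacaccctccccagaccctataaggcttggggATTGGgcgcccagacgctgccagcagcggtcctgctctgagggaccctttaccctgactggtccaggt
Plin5, chr17:56117499-56117798: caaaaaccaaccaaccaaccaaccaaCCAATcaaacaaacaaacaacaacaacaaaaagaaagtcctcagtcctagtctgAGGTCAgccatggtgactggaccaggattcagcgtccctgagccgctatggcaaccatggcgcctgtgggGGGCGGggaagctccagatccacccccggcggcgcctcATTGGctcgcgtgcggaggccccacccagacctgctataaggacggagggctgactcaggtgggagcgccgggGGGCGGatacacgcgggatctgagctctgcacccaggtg
AGGTCA was present for Plin2 (as TGACCT, read on the other strand) and for Plin5, and occurred in 16.2% of 32544 distinct windows of that length. The paired element had no match in any member's window and occurred in 0.0399% of windows, and the TATA box likewise had none and occurred in 13.6%. The CCAAT box was in the windows of Plin2, Plin3, Plin4 and Plin5 and in 37.4% of all windows. The GC box was in those of Plin2, Plin3 and Plin5 and in 35.9% of all, and the E-box in that of Plin2 and in 7.17% of all. The window of Plin1 held 0 of the 6 motifs. These matches describe letters in a window and were not tested for use.

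In this liver Plin2 was by far the most abundant perilipin and Plin1 was close to absent. By FPKM, which scales reads by gene length so that genes can be compared, Plin2 averaged 213.8 ± 3.16 in the libraries labelled CSAA and 224.8 ± 27.0 in those labelled CDAA (mean ± SD, n = 3 each, as below). Plin5 followed with 23.0 ± 2.63 and 19.5 ± 6.77 FPKM, and Plin3 with 17.8 ± 2.15 and 13.1 ± 2.61 FPKM. Plin5 was above Plin3 in 5 of the 6 libraries and below it in CDAA replicate 1, so these neighbours in the order were not separated in every animal. Plin4 was lower still, at 4.81 ± 4.78 and 1.63 ± 0.822 FPKM. Plin1 was lowest, at 0.00464 ± 0.00803 and 0.371 ± 0.526 FPKM. Among genes with a read in CSAA, Plin2 ranked 181 of 16135 by mean FPKM, Plin5 1723, Plin3 2170 and Plin4 6147.

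**Figure D1:**
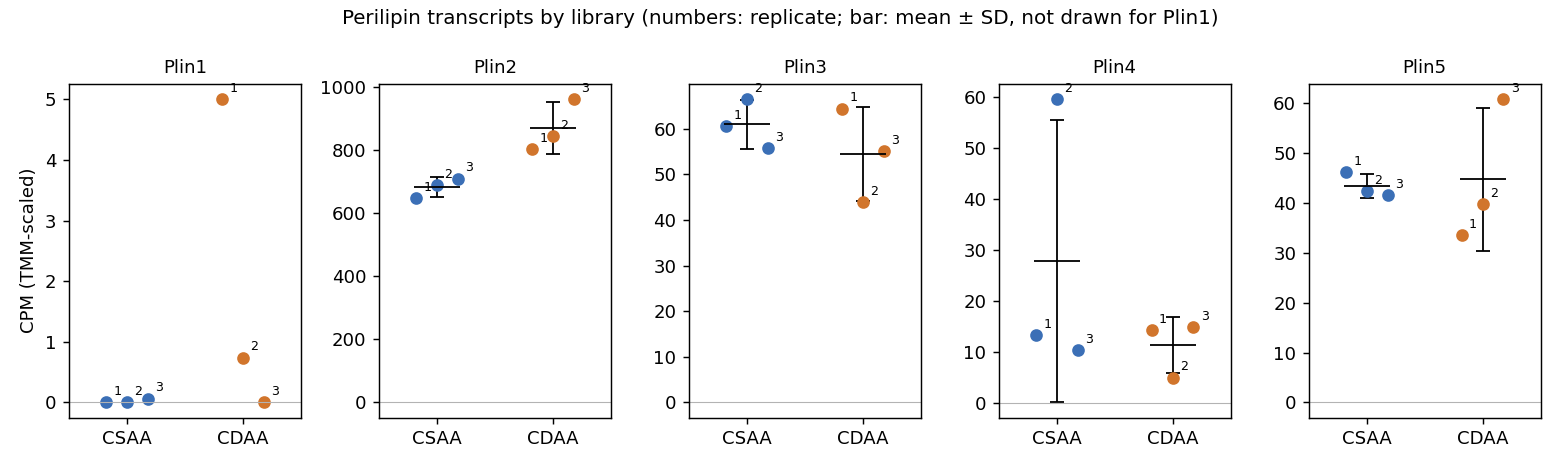
Level of each perilipin transcript in CPM on TMM-scaled library sizes (y axes, each with its own scale) by labelled feed, with 1 point per library numbered by replicate and mean ± SD bars except for Plin1. Plin2 lay between 647 and 709 CPM in CSAA and between 803 and 961 in CDAA, Plin4 was high in CSAA replicate 2 alone (59.6 CPM), and Plin1 was highest in CDAA replicate 1 (5.01 CPM).

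None of the 4 tested members passed the comparison of the feeds. With edgeR, 0 of 4 were called at an adjusted p under 0.05 and 1 was under 0.05 unadjusted, against 14.8% of all tested genes called and 30.6% under 0.05 unadjusted. DESeq2 called 1 member, Plin2, against 21.4% of all tested genes, and limma-voom called 0 against 14.0%. The plot of levels by library shows the values behind this count, given here on TMM-scaled library sizes.

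Plin2, the hepatocyte droplet coat, had the most even values of the family. Its level was 647, 689 and 709 CPM in CSAA replicates 1 to 3 and 803, 843 and 961 CPM in CDAA replicates 1 to 3. The groups did not overlap, a pattern seen for 36.0% of tested genes. The log2 fold change was 0.35 ± 0.12 (SE, edgeR adjusted p = 0.0981, unadjusted p = 0.0225), with all 3 CDAA libraries above all 3 CSAA libraries. DESeq2 gave 0.38 ± 0.12 with an adjusted p = 0.00872 and was the 1 setting of those run under which Plin2 was called.

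The size of the Plin2 difference depended on how libraries were scaled. On library totals without scaling factors, Plin2 was at 758, 756 and 738 CPM in CSAA and at 726, 744 and 898 CPM in CDAA. On that scale the groups overlapped and CDAA replicate 3 alone stood above the others. The log2 fold change with library size only was 0.073 ± 0.13 (edgeR adjusted p = 0.690), while the median of all tested genes moved to -0.28. The 20 hepatocyte markers had a median log2 fold change of 0.45 on the TMM scale, so Plin2 lay below the middle of that list. Scaled to those markers, a setting chosen after the data were seen, the value for Plin2 was -0.038 ± 0.15 (edgeR adjusted p = 0.854).

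Plin3, the coat protein that moves between cytosol and droplets, overlapped between the feeds. It was at 60.5, 66.5 and 55.7 CPM in CSAA and at 64.4, 43.9 and 55.1 CPM in CDAA. CDAA replicate 2 was the lowest library, and CDAA replicate 1 lay within the CSAA range. The log2 fold change was -0.16 ± 0.15 (edgeR adjusted p = 0.514). It was -0.024 without CDAA replicate 2, -0.44 with library size only and -0.56 on hepatocyte marker scaling, and was not called in any of these (edgeR adjusted p = 0.934, 0.0898 and 0.0606).

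Plin5, the perilipin of oxidative tissues, varied more among CDAA libraries than among CSAA libraries. It was at 46.1, 42.3 and 41.6 CPM in CSAA and at 33.6, 39.7 and 60.8 CPM in CDAA. The CDAA libraries thus lay on both sides of the CSAA range, with replicate 3 above it and replicates 1 and 2 below it. The log2 fold change was 0.046 ± 0.20 (edgeR adjusted p = 0.909) and its sign was not stable, at -0.24 without CDAA replicate 3, -0.23 with library size only, -0.34 on hepatocyte marker scaling and 0.22 without CDAA replicate 1. Skeletal muscle also makes Plin5, and the part of the muscle transcripts of CDAA replicate 1 in its Plin5 level was not tested.

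Plin4, an adipocyte-enriched coat protein, differed most between single animals. It was at 13.2, 59.6 and 10.2 CPM in CSAA and at 14.2, 4.89 and 14.8 CPM in CDAA. CSAA replicate 2, with 1118 reads, stood far above the other 5 libraries, which held 66 to 269 reads. The log2 fold change was -1.29 ± 0.69 (edgeR adjusted p = 0.251), and without CSAA replicate 2 it was -0.049 ± 0.44 (edgeR adjusted p = 0.959). Pparg, the PPAR of fat storage, and Cidec, which fuses droplets, were also highest in CSAA replicate 2. Pparg was at 20.2, 32.0 and 19.1 CPM in CSAA and 8.12, 11.9 and 19.3 in CDAA. Cidec was at 13.2, 19.1 and 7.83 CPM in CSAA and 6.98, 5.26 and 5.33 in CDAA. Other fat storage genes were mixed in this respect. In CSAA replicates 1 to 3 the lipase gene Lpl was at 195.9, 122.6 and 130.9 CPM. The fatty acid uptake receptor gene Cd36 was at 197.5, 198.6 and 169.4 CPM there. The adipocyte hormone gene Adipoq had 0 reads in CSAA replicate 2, which allows up to 3 reads, or 0.176 CPM on unscaled totals. Of other adipocyte markers, Lep, Retn and Adig also had 0 reads there. Slc2a4 had 18 reads there, against 6 and 3 in CSAA replicates 1 and 3, and Cfd had 3 against 0 and 0. The part of adipose tissue in the Plin4 level was not tested.

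**Figure D2:**
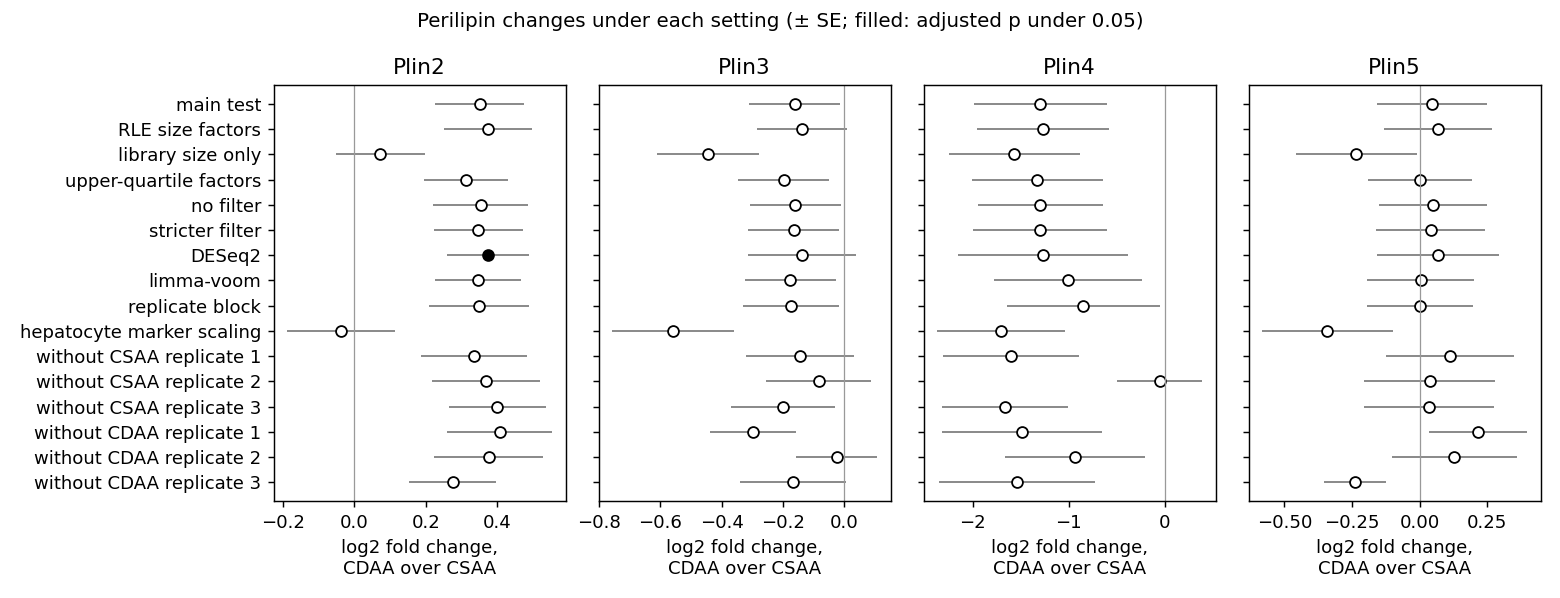
log2 fold change ± SE of the 4 tested perilipins, CDAA over CSAA (x axes, each with its own scale), under the main test and each alternative (y axis), with filled points for an adjusted p under 0.05. The filled point is Plin2 with DESeq2, Plin2 lay near 0 with library size only and on hepatocyte marker scaling, and Plin4 lay near 0 without CSAA replicate 2.

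The plot of changes under each setting shows that library size only and hepatocyte marker scaling lowered the value of all 4 members. Of the fits that left out 1 library, the one without CSAA replicate 2 moved Plin4 most and the one without CDAA replicate 3 moved Plin5 most. For Plin2 the fold change ran from 0.28 to 0.41 when 1 library was left out, a range narrower than that between scalings.

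Plin1, the coat protein that gates lipolysis in adipocytes, was not tested because too few libraries held reads. It had 0, 0 and 1 reads in CSAA replicates 1 to 3 and 66, 10 and 0 reads in CDAA replicates 1 to 3. CDAA replicate 3 thus resembled the CSAA libraries, and most reads came from CDAA replicate 1. The ratio of read rates, CDAA over CSAA, was 103 (95% exact interval 17.9 to 4120), and without CDAA replicate 1 it was 20 (2.85 to 869), both intervals covering counting error only. With no filter on low counts the fitted log2 fold change was 6.19 ± 1.79 (edgeR adjusted p = 0.0600). That value depends on how counts of 0 are treated and is no bound. Without CDAA replicate 3 the gene passed the filter only through the CDAA libraries that held its reads, so no test is given from that fit.

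Adipocyte transcripts were found in the same libraries as Plin1. Adipoq, the adiponectin gene, had 0, 0 and 0 reads in CSAA and 39, 7 and 0 reads in CDAA, and Retn, the resistin gene, had 0, 0 and 0 and then 11, 3 and 0. Cfd, the adipsin gene, had 0, 3 and 0 reads in CSAA and 45, 15 and 2 in CDAA. Lep, the leptin gene, had 4 reads in CDAA replicate 1 and 0 elsewhere, and Adig had 0 reads in CDAA replicates 1 and 2. Plin1, Adipoq, Retn and Cfd thus had the same order of CDAA libraries. So did Slc2a4 (69, 22 and 0 reads), Acvr1c (16, 3 and 0), Fabp4 (227, 126 and 111) and Adrb3 (115, 99 and 55). Of these, Fabp4 and Adrb3 also had many reads in CSAA (181 to 232 and 75 to 188). Adig, Car3, Pck1, Lipe, Cidec, Gpd1, Tmem120b and Orm3 did not have that order. Lipe, a lipase gene that liver also transcribes, had 106, 101 and 159 reads in CDAA, and Orm3 had 2, 3 and 6. Of the 10 adipocyte markers with enough reads to be tested, 1 was higher (Pck1) and 2 were lower (Cidec and Orm3) in CDAA by edgeR's adjusted p under 0.05. Of all tested genes, 4.25% were higher and 10.5% lower. The 16 adipocyte markers summed to 3762 to 5254 CPM in CSAA and 5083 to 7617 CPM in CDAA, with 4 to 5 and 1 to 5 of them at 0 reads. That sum was carried by Car3 and Pck1, which liver also makes. The part of adipose tissue in the Plin1 reads was not tested.

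**Figure D3:**
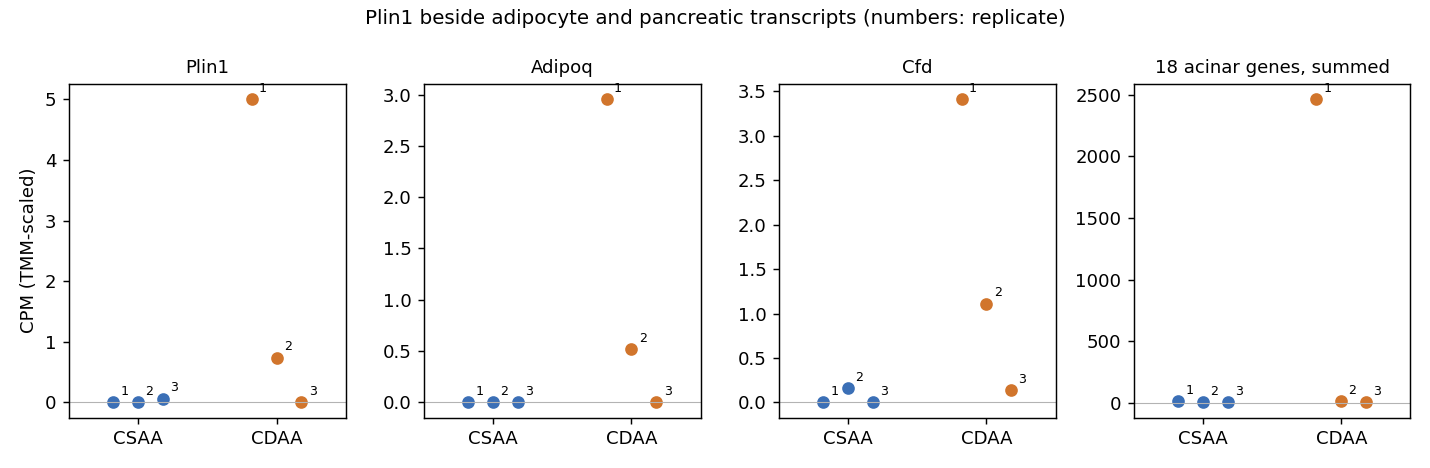
Plin1, the adipocyte genes Adipoq and Cfd, and the sum of 18 pancreatic acinar genes in CPM on TMM-scaled library sizes (y axes, each with its own scale) by labelled feed, with 1 point per library numbered by replicate. CDAA replicate 1 was highest and CDAA replicate 2 next in all 4 panels, with Plin1 at 5.01 and 0.741 CPM. For the acinar sum CDAA replicate 2 (15.2 CPM) was barely above CSAA replicate 1 (15.1 CPM).

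Adding the family together, Plin2 made up most perilipin mRNA in every library. Its share of the summed perilipin FPKM was 82.1, 80.6 and 84.8% in CSAA and 86.3, 88.4 and 85.6% in CDAA. The CDAA libraries all lay above the CSAA libraries, with a mean difference of 4.27 percentage points (82.5 ± 2.11% and 86.7 ± 1.46%, exact two-sided permutation p = 0.1). This test cannot go below 0.1 with 3 libraries a group, and 5 shares were compared. Such shares do not depend on library scaling. Leaving out single libraries gave differences of 3.32 to 5.40 points.

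The other members took the remainder, and their shares overlapped between the feeds. Plin5 held 8.85 ± 0.858% in CSAA and 7.40 ± 1.56% in CDAA (exact permutation p = 0.3). Plin3 held 6.84 ± 0.576% and 5.08 ± 1.17% (exact permutation p = 0.2), with CDAA replicate 1, at 6.42%, inside the CSAA range. Plin4 held 1.82 ± 1.77% and 0.618 ± 0.296% (exact permutation p = 0.3), and its highest share, 3.86%, was in CSAA replicate 2. Plin1 held at most 0.406%, in CDAA replicate 1. The ratio of Plin2 to Plin3 FPKM was 11.5, 11.2 and 13.7 in CSAA and 13.4, 20.7 and 18.8 in CDAA, so the groups overlapped (exact permutation p = 0.2).

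**Figure D4:**
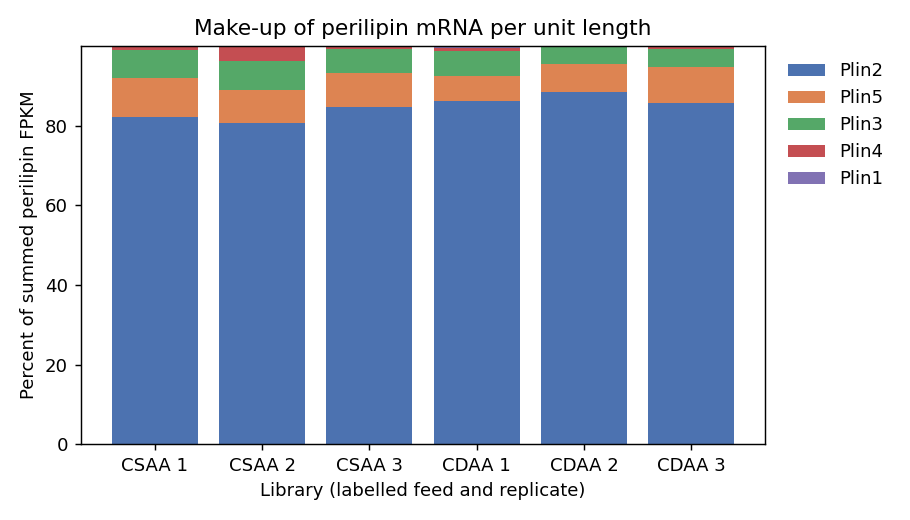
Share of the summed perilipin FPKM (y axis, percent) held by each member in each of the 6 libraries (x axis), stacked. Plin2 held 80.6 to 84.8% in the CSAA libraries and 85.6 to 88.4% in the CDAA libraries, and the Plin4 segment was largest in CSAA replicate 2.

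Genes next to the perilipins gave no call for the neighbours of Plin1, Plin4 and Plin5. Plin4 overlaps Hdgfl2, a gene on the opposite strand, by 17 bases at its end, and the strand setting of the counting is not given. Hdgfl2 was at 30.9, 33.1 and 34.6 CPM in CSAA replicates 1 to 3 and 31.9, 35.9 and 33.1 in CDAA replicates 1 to 3. The part of Hdgfl2 reads in the Plin4 level was not tested. Lrg1, an acute phase glycoprotein gene 2081 bases from Plin5, did not pass (log2 -0.28 ± 0.25, edgeR adjusted p = 0.497). Pex11a, a peroxisome division gene 3053 bases from Plin1, was at 70.7 to 110.3 CPM in CSAA and 98.1 to 134.1 in CDAA (edgeR adjusted p = 0.225), far above Plin1 in every library. Uhrf1, a DNA replication and methylation factor gene 10447 bases from Plin3, fell (log2 -2.97 ± 0.56, edgeR adjusted p = 0.0129). Of the 4 neighbours within 20 kb of Plin3 it was the 1 called, with Arrdc5 not tested for want of reads, and the files list no other gene within 20 kb of Plin2.

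Some genes on a broad list of droplet partners passed the test. The list is not confined to proteins at the droplet surface. It also holds, for example, the transcription factor gene Mlxipl, the chaperone gene Hspa8 and the lysosomal receptor gene Lamp2. Of 28 tested partner genes 7 rose, 1 fell and 20 did not pass (median log2 0.29), where 4.25% of all tested genes were called higher, 10.5% lower and the median was 0.00. Abhd5, the lipase co-activator that perilipins hold back, rose from 27.2, 20.3 and 25.6 CPM to 51.4, 32.9 and 39.7 CPM (log2 0.76 ± 0.18, edgeR adjusted p = 0.0308). The lipase it activates, Pnpla2, was at 65.8 ± 5.09 and 68.0 ± 15.8 CPM (log2 0.048 ± 0.16, edgeR adjusted p = 0.877), and the lipase inhibitor G0s2 did not pass (log2 -0.39 ± 0.18, edgeR adjusted p = 0.181). Cidec fell (log2 -1.19 ± 0.32, edgeR adjusted p = 0.0428).

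The carboxylesterases Ces1d and Ces1f, which hydrolyse stored lipid in mouse liver, had the smallest adjusted p among the partners that rose. Ces1d was at 188, 287 and 262 CPM in CSAA and at 434, 650.2 and 867 in CDAA (log2 1.40 ± 0.26, edgeR adjusted p = 0.0129). Ces1f rose by 1.09 ± 0.23 on the log2 scale (edgeR adjusted p = 0.0202). Hspa8, the chaperone that delivers Plin2 and Plin3 to lysosomes, rose by 0.54 ± 0.14 (edgeR adjusted p = 0.0416), while its lysosomal receptor gene Lamp2 did not pass (log2 0.29 ± 0.12, edgeR adjusted p = 0.149). Ldah, Mlxipl and Pnpla3 also rose. Ces1d and Ces1f have close paralogs, among which multiply matching reads could be split. These counts changed when single libraries were left out, with 6 partners higher without CDAA replicate 3 but 0 without CSAA replicate 1, 2 without CDAA replicate 1 and 3 without each of the others. The number higher among all tested genes moved too, from 546 to 688, 76 and 223 in the first 3 of these fits and to 157 to 396 in the others. Cidec was not called without CSAA replicate 1, CSAA replicate 2, CDAA replicate 1 or CDAA replicate 2. On hepatocyte marker scaling 2 partners were higher and 3 lower (median log2 -0.099), and with library size only 3 and 3 (median log2 0.013).

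**Figure D5:**
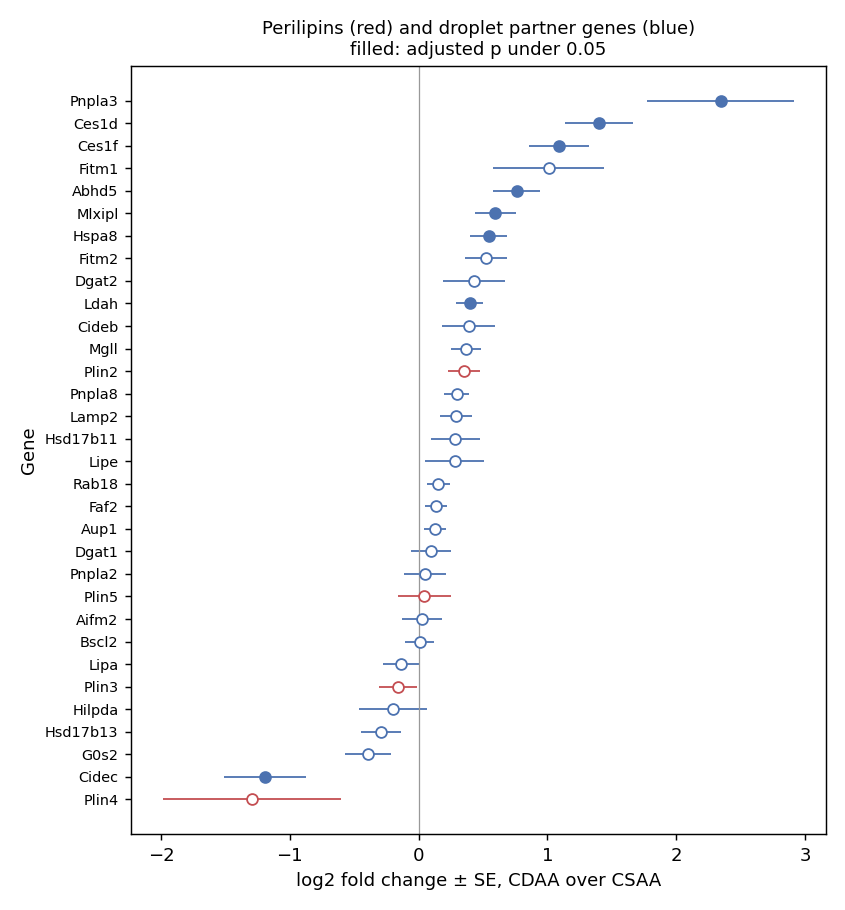
log2 fold change ± SE, CDAA over CSAA (x axis), of the 4 tested perilipins in red and 28 tested droplet partner genes in blue, ordered by value (y axis), with filled points for an edgeR adjusted p under 0.05. The perilipins are all open points, Plin2 lies at 0.35, and 7 partners are filled above 0 and Cidec below it.

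Neither Ppara nor Pparg passed the test. Ppara, the PPAR of fatty acid oxidation, was at 116, 136 and 135 CPM in CSAA and 186, 199.9 and 126 in CDAA (log2 0.40 ± 0.18, edgeR adjusted p = 0.164). Pparg was lower in mean without passing (log2 -0.86 ± 0.32, edgeR adjusted p = 0.114). Of 18 PPAR regulator genes 3 rose and 0 fell (median log2 0.13), where 4.25% of all tested genes were called higher and 10.5% lower. The 3 were Foxo1, Klf15 and Creb3l3, transcription factor genes of the fasting response. They rose by 0.51 ± 0.092, 0.70 ± 0.14 and 0.54 ± 0.12 (edgeR adjusted p = 0.0110, 0.0170 and 0.0218). With library size only 0 regulators were higher and 2 lower (median log2 -0.15), and on hepatocyte marker scaling 0 and 4 (median log2 -0.26). Without CSAA replicate 1, 0 were higher, and without CDAA replicate 2, 1 was.

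Of 32 known targets of Ppara 9 rose and 0 fell, where 4.25% of all tested genes were called higher and 10.5% lower. The median log2 fold change of the targets was 0.49 beside 0.45 for the hepatocyte markers. Acadvl, a mitochondrial acyl-CoA dehydrogenase, rose by 0.55 ± 0.10 and the fatty acid binding protein gene Fabp1 by 0.90 ± 0.18 (edgeR adjusted p = 0.0142 and 0.0160). Several strongly inducible targets were high in CDAA replicate 3, the library with the most Plin2 and Plin5. Cyp4a14, a fatty acid hydroxylase gene, was at 163, 613 and 421 CPM in CSAA and at 108, 445 and 3387 in CDAA and was not called (edgeR adjusted p = 0.318). Acot1, an acyl-CoA thioesterase gene, was at 18.7, 17.3 and 21.7 CPM and at 22.4, 29.1 and 145 CPM and was not called either (edgeR adjusted p = 0.105). Both have close paralogs, with the same limit as for Ces1d. Targets called higher numbered 0 to 8 when 1 library was left out, with 0 without CSAA replicate 1, 1 without CSAA replicate 2 and 2 without CDAA replicate 2. They numbered 3 with library size only and 3 on hepatocyte marker scaling.

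A list of genes tied to Pparg and fat cells held 13 that were tested. Of these, 6 rose and 3 fell (median log2 0.55), where 4.25% of all tested genes were called higher and 10.5% lower. Not all are genes of fat storage or synthesis, as Pck1, a gluconeogenesis gene, and Adipor2 were among the 6 that rose. Which factor drives the listed genes here was not tested. Scd1, a fatty acid desaturase, Acaca, which makes malonyl-CoA, and Adipor2, an adiponectin receptor gene, had the smallest adjusted p among those that rose (log2 1.70 ± 0.26, 0.94 ± 0.19 and 0.78 ± 0.17, edgeR adjusted p = 0.00589, 0.0165 and 0.0228). The 3 that fell were Lpl (log2 -1.82 ± 0.28, edgeR adjusted p = 0.00614), the lipoprotein lipase, Cd36 (log2 -1.24 ± 0.32, edgeR adjusted p = 0.0396), a fatty acid uptake receptor, and Cidec. Macrophages also make Lpl and Cd36, and the 20 macrophage markers summed to 999 to 1721 CPM in CSAA and 501 to 633 CPM in CDAA, and their part in these falls was not tested. When 1 library was left out 1 to 7 of these genes were higher and 1 to 2 lower, with 1 higher without CSAA replicate 1 and without CDAA replicate 1, 2 without CDAA replicate 2 and 3 without CSAA replicate 3. The number lower was 1 without CSAA replicate 1, CSAA replicate 2, CDAA replicate 1 or CDAA replicate 2. On hepatocyte marker scaling 2 were higher and 3 lower.

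Across the 6 libraries the 3 genes most like Plin2 encode proteins of fatty acid oxidation. Among 8330 genes averaging 10 CPM or more, the highest Pearson correlations of log2 levels with Plin2 were those of Hadha (0.999), which encodes the mitochondrial trifunctional enzyme, Slc25a20 (0.998), the carnitine carrier, and Ech1 (0.998), an enoyl-CoA isomerase. All 3 belong to the list of Ppara targets. Slc25a20 was at 92.1, 102 and 108 CPM in CSAA and at 125, 134 and 165 in CDAA, the same order of libraries as for Plin2. The median correlation with Plin2 was 0.855 for 31 Ppara targets, 0.749 for 23 droplet partners, 0.623 for 20 hepatocyte markers and 0.254 for all 8330 genes. Markers of other cell types had the opposite sign, with a median of -0.912 for 13 stellate cell markers and -0.723 for 14 macrophage markers, and their part in the Plin2 pattern was not tested. These correlations span both feeds and share library scaling. The top 3 were picked from 8330 genes in these same 6 libraries. Top matches picked in this way for the other members also reached 0.972 or more, so values of this size are no test of shared control.

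The other members followed different genes. For Plin5 the closest were Mtmr3, Tbc1d14 and Cdc42bpb (0.993, 0.992 and 0.989), and the median correlation with the Ppara targets was 0.384. For Plin4 they were Jam2, Cdipt and Wdr6 (0.981, 0.976 and 0.975), each highest in CSAA replicate 2. For Plin3 they were Fbxl19, Rbm7 and Erp29 (0.974, 0.973 and 0.972), each lowest in CDAA replicate 2. For Plin1 they were Mycbp2, Fam193b and Hspb8 (0.994, 0.984 and 0.984), each highest in CDAA replicate 1. Among the members themselves, correlations over the 6 libraries ran from -0.471 for Plin2 with Plin3 to 0.810 for Plin3 with Plin4, and the neighbours Plin4 and Plin5 had 0.0959.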

How the data were processed

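Whole-number read counts per gene were used as the authors deposited them, 1 file per library, and were not normalised, per the file headers. The deposited FPKM values equalled the count scaled by listed length and library total within a relative tolerance of 1e-06, so they carry no further information. DESeq 1.30.0, HTSeq 0.9.1, HISAT2 2.0.5 and cutadapt 1.15 are named in the submitters' processing notes, as are mm9 and mm10. What each was used for, how strand was set and how multiply matching reads were counted is not given in the sources used here. Libraries started from 3 ug of RNA.

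All genes were fitted together with edgeR 4.0.16 under R 4.3.3, comparing CDAA with CSAA by the quasi-likelihood F test after TMM scaling and the filterByExpr filter, with no covariate. Benjamini-Hochberg adjustment covered 12845 genes at a threshold of 0.05. SEs are the log2 fold change over the square root of F. TMM factors were 1.17, 1.10 and 1.04 for CSAA and 0.904, 0.883 and 0.935 for CDAA, and CPM is on total reads times these factors unless said otherwise. Correlations used log2(CPM + 1). Functions were tested on simulated counts. Alternatives were DESeq2 1.42.0, limma-voom (limma 3.58.1), other scalings and filters, a replicate block and leaving out each library.

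Named genes were the 5 members, up to 3 passing genes each way from each list, Ppara, Pparg, Pnpla2, Abhd5, G0s2 and Cidec, neighbours within 20 kb, and the 3 genes most correlated with each member at 10 CPM or more. A gene that this rule names is not reported here. Ldah, Mlxipl, Pnpla3, Hspa8, Lamp2, Cyp4a14, Acot1, Lipe, Orm3 and single adipocyte genes were named after their values were seen. Members and lists were chosen with earlier results of these data known. Nothing in the labels says more than that each library is a separate mouse of its group.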

Additional observations from a re-analysis of the deposited data

How the results depend on the processing

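Under the settings run, 546 genes were higher and 1355 lower in the main test. With library size only the counts were 137 higher and 2745 lower, on hepatocyte marker scaling 88 and 3417, and with DESeq2 1117 higher. Leaving out 1 library gave 76 to 688 higher and 568 to 1456 lower. Plin2 was called with DESeq2 (log2 0.38) and lay near 0 on hepatocyte marker scaling (-0.038 ± 0.15). Plin5 changed sign with library size only (-0.23), on hepatocyte marker scaling (-0.34) and without CDAA replicate 3 (-0.24, in a range of -0.24 to 0.22). It was called in none of these fits. Plin1 had a fitted log2 value of 6.80 without CDAA replicate 3, where leaving out the CDAA library at 0 reads let the gene through the filter, so that value is no test. The causes of these moves were not tested, apart from the scaling itself, which shifted the median of all genes by -0.28 and -0.40. Plin3 (-0.30 to -0.024) and Plin4 (-1.66 to -0.049) kept their sign when single libraries were left out. Their values nearest 0 had SEs of 0.13 and 0.44, so the sign is not fixed by these fits. Leaving out 1 library moved no difference between the 5 shares by more than the SD pooled over both feeds, but that SD is wide. The Plin4 difference went from -1.20 to -0.185 points without CSAA replicate 2 and the Plin1 difference from 0.153 to 0.0275 points without CDAA replicate 1.

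The labels number the replicates alike in both groups, but nothing in the labels ties equal numbers to each other. Deviations from the group means correlated at 0.0329, 0.144 and -0.109 for equal numbers and at -0.217 to 0.132 for unequal numbers. With 3 libraries a group, these values cannot show whether equal numbers share more than the number. With the replicate block 293 genes were higher and 1090 lower, and 0 of the 4 tested members were called. In that fit 4 droplet partners and 3 genes of the Pparg list were higher and 0 partners lower. DESeq2 called 11 partners and 15 Ppara targets higher. For Plin1, alternatives other than those given above held no value, since the gene did not pass their filter.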
